A study of Rattus norvegicus with 56 samples.

Results

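The microRNAs miR-143 and miR-145 were followed through fetal heart, amniotic fluid and maternal serum of rats exposed to dimethadione (DMO), a compound that causes ventricular septal defects (VSD). The 4 members were every row named miR-143-3p, miR-143-5p, miR-145-5p or miR-145-3p once the species prefix was removed, of 682 microRNAs listed in the 5 deposited tables together. All 4 were listed in each tissue. Sprague-Dawley dams of the DMO groups had been gavaged from D8 of pregnancy with DMO (60 mg/ml, 5 ml/kg) in 6 doses 12 h apart, and dams of the NC group with distilled water. Samples were taken on D19. Fetuses of exposed dams formed the VSD group where the septum was open without a malformation of the major vessels, and the non-VSD group where it was closed, so both carried the exposure and differed in outcome. For heart and amniotic fluid there were 7 NC, 7 non-VSD and 7 VSD samples, and for maternal serum 7 NC and 7 VSD samples. The dam of each fetus was not given, so p-values measure the spread between samples that may share a litter.

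In rats as in other mammals, miR-143 and miR-145 are processed from neighbouring hairpins of 1 transcript that depends on serum response factor and myocardin. They are the best known microRNAs of vascular smooth muscle, where they favour the contractile over the proliferating state, and they are also made by pericytes, fibroblasts and cells of the embryonic heart. Each hairpin gives a 5p and a 3p arm. One arm is usually loaded into Argonaute and abundant (miR-143-3p, miR-145-5p), and the other is mostly degraded (miR-143-5p, miR-145-3p), so that the ratio of arms compares products of 1 precursor.

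All 4 members matched a RefSeq mature sequence of the GRCr8 build, and the sequences are shown because they decide which microRNAs are counted together. They are printed 5′ to 3′ with the seed, bases 2 to 8, in capitals.
miR-143-3p: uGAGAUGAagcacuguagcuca
miR-143-5p: gGUGCAGUgcugcaucucugg
miR-145-5p: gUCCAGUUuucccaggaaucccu
miR-145-3p: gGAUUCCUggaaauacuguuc
The members had 4 different seeds, and no other of the 693 mature names in the RefSeq table shared a seed with any of them. All lie on the minus strand of chromosome 18, miR-143-3p at chr18:57371373-57371394, miR-143-5p at chr18:57371408-57371428, miR-145-5p at chr18:57370033-57370055 and miR-145-3p at chr18:57369997-57370017. The hairpin genes Mir143 (chr18:57371349-57371453) and Mir145 (chr18:57369983-57370070) were 1278 bases apart, and both lie within the bounds of the long noncoding RNA gene Carmn (chr18:57368191-57389112), which is also called Mir143hg. The mature forms were 21 to 23 bases long, so no length correction was used between members.

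Total counts were 1694811 to 9371130 in myocardium, 78188 to 331787 in amniotic fluid and 147609 to 581350 in serum. A count of 0 in the smallest amniotic fluid library allowed up to 38.4 CPM (counts scaled to a library total of 1000000), against 1.77 CPM in the smallest myocardium library, limits that cover counting error only. Heart muscle microRNAs (miR-1-3p, miR-133, miR-208 and miR-499, 7 names, all listed) summed to between 0.505% and 6.25% of a myocardium library. miR-1b, which the study places in the mir-1 family, was not among these names and took 1.14% to 9.19% of a myocardium library. The 7 names together were under 1% in 3 libraries, NC replicate 2 (0.505%), VSD replicate 1 (0.758%) and VSD replicate 4 (0.948%), called low in heart muscle microRNAs by these names alone. Those 3 also had epithelial microRNAs (the miR-200 family, miR-203a-3p, miR-205 and miR-375-3p, 8 names) at 1.75%, 2.12% and 1.57%, while the other myocardium libraries ran from 0.0167% to 1.37%. The smooth muscle members themselves did not stand apart there, with miR-143-3p at 22.4%, 19.4% and 17.5% of these 3 libraries. The fold changes and ratios of the members in myocardium, and the counts of the lists, are given with and without them.

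miR-143-3p was the most abundant microRNA of all 21 myocardium libraries. It took 17.3% to 29.8% of their counts (median 21.02%), ahead of miR-21-5p with a mean of 11.5%. In amniotic fluid it took 0.597% to 6.43% (median 1.55%) and ranked between place 3 and place 34, and in maternal serum 0.650% to 1.98% (median 1.12%), between place 10 and place 22. miR-145-5p, the abundant arm of the neighbouring hairpin, was at 0.498% to 1.41% in myocardium, 0.0135% to 2.67% in amniotic fluid and 0.185% to 0.701% in serum. The order of both abundant arms by median thus differed in the fluids, where miR-143-3p was higher in amniotic fluid and miR-145-5p in serum (0.140% against 0.316%), with ranges that overlapped. The less abundant arms were counted in every myocardium library, at 0.0251% to 0.0614% for miR-143-5p and 0.0124% to 0.0375% for miR-145-3p. In serum they were counted in every library too, miR-143-5p at 0.00216% to 0.00928% and miR-145-3p at 0.000364% to 0.00533%. In amniotic fluid their median was 0, and each of the 3 groups had 4 libraries of 7 with no miR-143-5p count and 5 of 7 with no miR-145-3p count.

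**Figure D1:**
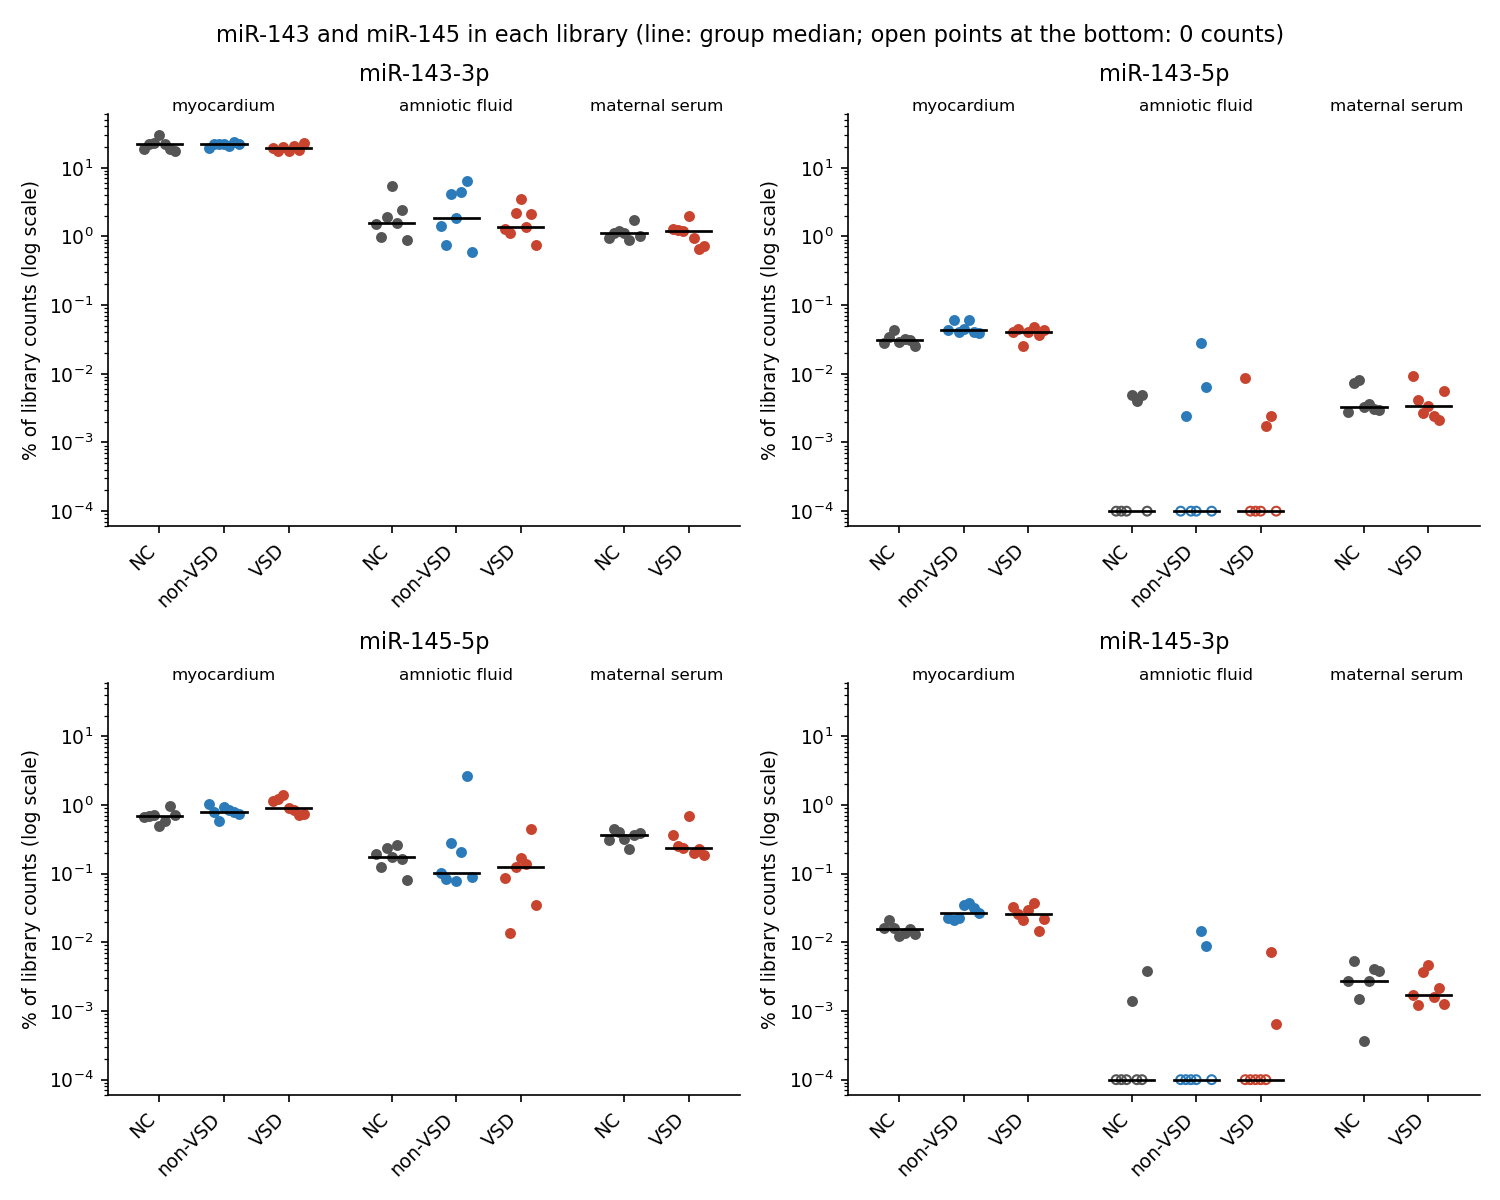
Share of library counts (%, log scale) of the 4 members in each of 56 libraries, by tissue and group. Lines are group medians and open points are libraries with 0 counts. miR-143-3p sits above 17% in every myocardium library and below 7% in every amniotic fluid and serum library.

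The plot of the members by library shows miR-143-3p far higher in myocardium than in either fluid, with smaller differences between the groups of a tissue. For miR-145-5p the tissues lay closer, with NC medians of 0.694% in myocardium and 0.371% in serum, against 0.237% in VSD serum. The NC samples of myocardium and maternal serum were made with the same library kit and sequencer, and were compared over 382 microRNAs. The RNA came from wax blocks in one and from serum in the other, with different extraction kits, and from fetuses and dams, so tissue, extraction and age cannot be told apart. Amniotic fluid had another kit and sequencer and was not set against them by a test. All 4 members passed the test in this comparison and were higher in myocardium, where 78.0% of all tested microRNAs passed in either direction and the median log2 fold change was 0.57. By edgeR's quasi-likelihood test with Benjamini-Hochberg adjustment, the log2 fold change was 4.04 ± 0.25 (SE) for miR-143-3p (adjusted p = 1.29e-10) and 2.61 ± 0.32 for miR-143-5p (adjusted p = 8.31e-07). It was 2.06 ± 0.37 for miR-145-3p (edgeR adjusted p = 7.80e-05) and 0.72 ± 0.17 for miR-145-5p (edgeR adjusted p = 0.000837), the latter near the median of all microRNAs. The ranges of the 2 tissues did not overlap for any of the 4, as was so for 58.4% of the microRNAs tested. The values without myocardium NC replicate 2 were 3.89, 2.47, 1.84 and 0.58 in the same order, and all 4 passed.

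Within a library the members were far from equal. In NC myocardium there were 32.3 counts of miR-143-3p for each miR-145-5p at the median (range 19.2 to 59.8), and in NC serum 3.03 (2.56 to 4.66). Every myocardium NC library lay above every serum NC library, with a difference of 3.30 on the log2 scale (exact two-sided permutation test over 3432 groupings, p = 0.000583, the smallest it can give, adjusted p = 0.000874 over 3 ratios). The arms of a hairpin differed between these tissues in opposite directions. miR-143-3p to miR-143-5p was 675 at the median in NC myocardium (524 to 1015) and 321 in NC serum (143 to 554), a log2 difference of 1.35 (exact permutation p = 0.00117, adjusted p = 0.00117). miR-145-5p to miR-145-3p was 41.9 in NC myocardium (33.3 to 63.4) and 97.7 in NC serum (80.2 to 586), a log2 difference of -1.63 (exact permutation p = 0.000583, adjusted p = 0.000874). Without myocardium NC replicate 2 the 3 differences were 3.30, 1.36 and -1.56, and all passed. The serum ratios rest on 133 counts of miR-143-5p and 98 of miR-145-3p over the 7 NC libraries. In amniotic fluid, miR-143-3p to miR-145-5p was 8.14 at the NC median, 13.6 in non-VSD and 17.7 in VSD, with ranges of 5.99 to 30.9, 2.41 to 23.5 and 4.77 to 78.6 that overlapped.

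**Figure D2:**
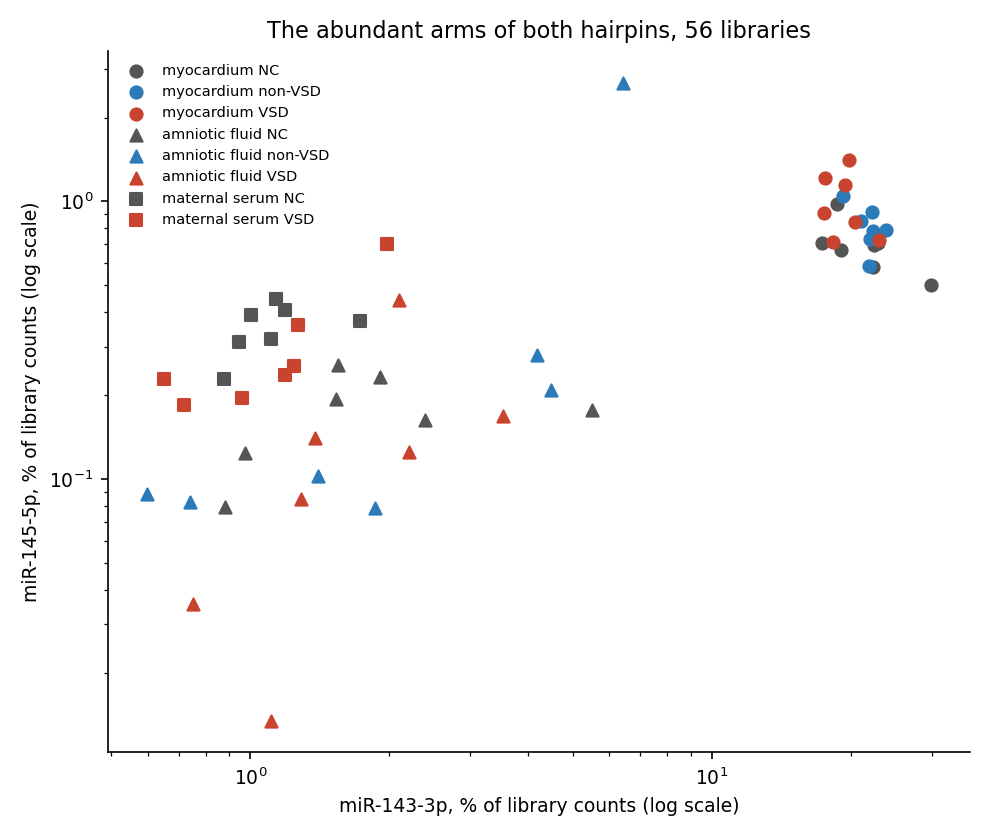
miR-145-5p against miR-143-3p, both as % of library counts on log scales, 1 point a library, with shape for the tissue and colour for the group. Myocardium lies to the right at 17.3% to 29.8% miR-143-3p, serum and amniotic fluid lie to the left, and 1 amniotic fluid library (non-VSD replicate 6) lies at 6.43% and 2.67%.

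In myocardium, the question was whether these microRNAs differ after DMO with and without a septal defect. None of the 4 members passed an edgeR adjusted p of 0.05 in VSD against NC, where 2 of 469 microRNAs did (0.426%), or in non-VSD against NC, where 1 of 456 did (0.219%). At an unadjusted p under 0.05 there was 1 member in each comparison by each of edgeR, DESeq2 and limma. Over all microRNAs, 90 of 469 in VSD and 80 of 456 in non-VSD were at that level by edgeR, 112 and 94 by DESeq2, and 105 and 75 by limma. DESeq2 passed 1 of the 4 in non-VSD against NC, where it passed 10.5% of all microRNAs, and none in VSD against NC, where it passed 9.81%. By limma no member passed in either, against 0.0% and 0.426% of all microRNAs. None met the DE-microRNA threshold of the study's methods (a fold change of 2 or more, or of 0.5 or less, at an unadjusted p under 0.05), which 6.82% and 4.17% of microRNAs met.

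miR-143-3p had its lowest mean and median share in the VSD group. Its share was 17.3%, 22.4% and 29.8% of the library in NC (lowest, median and highest of 7), 19.2%, 22.0% and 23.8% in non-VSD, and 17.5%, 19.4% and 23.1% in VSD. The means were 21.8 ± 4.15% (SD, n = 7), 21.8 ± 1.40% and 19.5 ± 1.95%. The 3 ranges overlapped, and NC held both the lowest and the highest library. After scaling by TMM, which assumes most microRNAs unchanged, the log2 fold change was -0.62 ± 0.20 in VSD (edgeR adjusted p = 0.0997, unadjusted p = 0.00738) and -0.29 ± 0.20 in non-VSD (edgeR adjusted p = 0.537), against a median of all microRNAs of -0.05 and -0.07. The VSD value passed without NC replicate 2 (-0.73, edgeR adjusted p = 0.0321) and in a fit of all 3 groups (-0.62, edgeR adjusted p = 0.0374), and did not without the 3 libraries low in heart muscle microRNAs (-0.59, edgeR adjusted p = 0.127). Scaling by library totals moved the median of all microRNAs to 0.32 in VSD and 0.13 in non-VSD, and gave -0.16 ± 0.12 and 0.00 ± 0.11 for miR-143-3p, again below the median of all.

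miR-145-5p had its highest median share in VSD. Its share was 0.498%, 0.694% and 0.976% in NC, 0.585%, 0.789% and 1.05% in non-VSD, and 0.714%, 0.911% and 1.41% in VSD. All 7 VSD libraries lay above the NC median and 3 above the highest NC library. The TMM-scaled log2 fold change was nevertheless 0.11 ± 0.19 in VSD (edgeR adjusted p = 0.780) and 0.02 ± 0.19 in non-VSD (edgeR adjusted p = 0.981), and library totals gave 0.53 ± 0.19 (edgeR adjusted p = 0.101) and 0.24 ± 0.16 (edgeR adjusted p = 0.434).

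The less abundant arms had higher median shares in both DMO groups than in NC. miR-145-3p was at 0.0124%, 0.0154% and 0.0209% in NC, 0.0210%, 0.0271% and 0.0371% in non-VSD, and 0.0144%, 0.0257% and 0.0375% in VSD. All 7 non-VSD libraries lay above all 7 NC libraries, as was so, in either direction, for 1.97% of the microRNAs tested, and 6 of 7 VSD libraries did. The TMM-scaled log2 fold change was 0.61 ± 0.18 in non-VSD (edgeR adjusted p = 0.106, unadjusted p = 0.00443) and 0.31 ± 0.19 in VSD (edgeR adjusted p = 0.363). The non-VSD value passed with DESeq2 (0.59, adjusted p = 0.0132) and with library totals (0.86, edgeR adjusted p = 0.0176), and the VSD value only with library totals among the alternatives (0.76, edgeR adjusted p = 0.0497). On the TMM scale 4 of the 7 non-VSD libraries lay above the highest NC library. miR-143-5p was at 0.0251%, 0.0314% and 0.0438% in NC, 0.0390%, 0.0436% and 0.0614% in non-VSD, and 0.0258%, 0.0411% and 0.0482% in VSD. Its log2 fold change was 0.27 ± 0.24 in non-VSD (edgeR adjusted p = 0.637), and in VSD -0.14 ± 0.23 with TMM (edgeR adjusted p = 0.748) and 0.32 ± 0.18 with library totals, a change of sign.

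Between the DMO groups, VSD against non-VSD, none of the 4 members passed. None of 483 microRNAs did by edgeR (0.0%, with 56 at an unadjusted p under 0.05) or by any of the other settings, DESeq2 and limma among them, and 5.18% met the DE-microRNA threshold. The log2 fold changes were -0.30 ± 0.17 for miR-143-3p, -0.38 ± 0.22 for miR-143-5p, 0.13 ± 0.19 for miR-145-5p and -0.27 ± 0.18 for miR-145-3p, each with an edgeR adjusted p of at least 0.462.

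Without the 3 libraries low in heart muscle microRNAs, none of the 4 members passed in any of the 3 comparisons by edgeR. Over all microRNAs, 7 of 472 passed in VSD against NC, 19 of 455 in non-VSD against NC and 0 of 481 in VSD against non-VSD. In VSD against NC the log2 fold changes were then -0.59 for miR-143-3p, -0.15 for miR-143-5p, 0.09 for miR-145-5p and 0.26 for miR-145-3p. In non-VSD against NC they were -0.36, 0.21, -0.05 and 0.60 in the same order, and in VSD against non-VSD -0.21, -0.33, 0.17 and -0.31. The sign was that of the full set for all but miR-145-5p in non-VSD, which was near 0 in both.

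**Figure D3:**
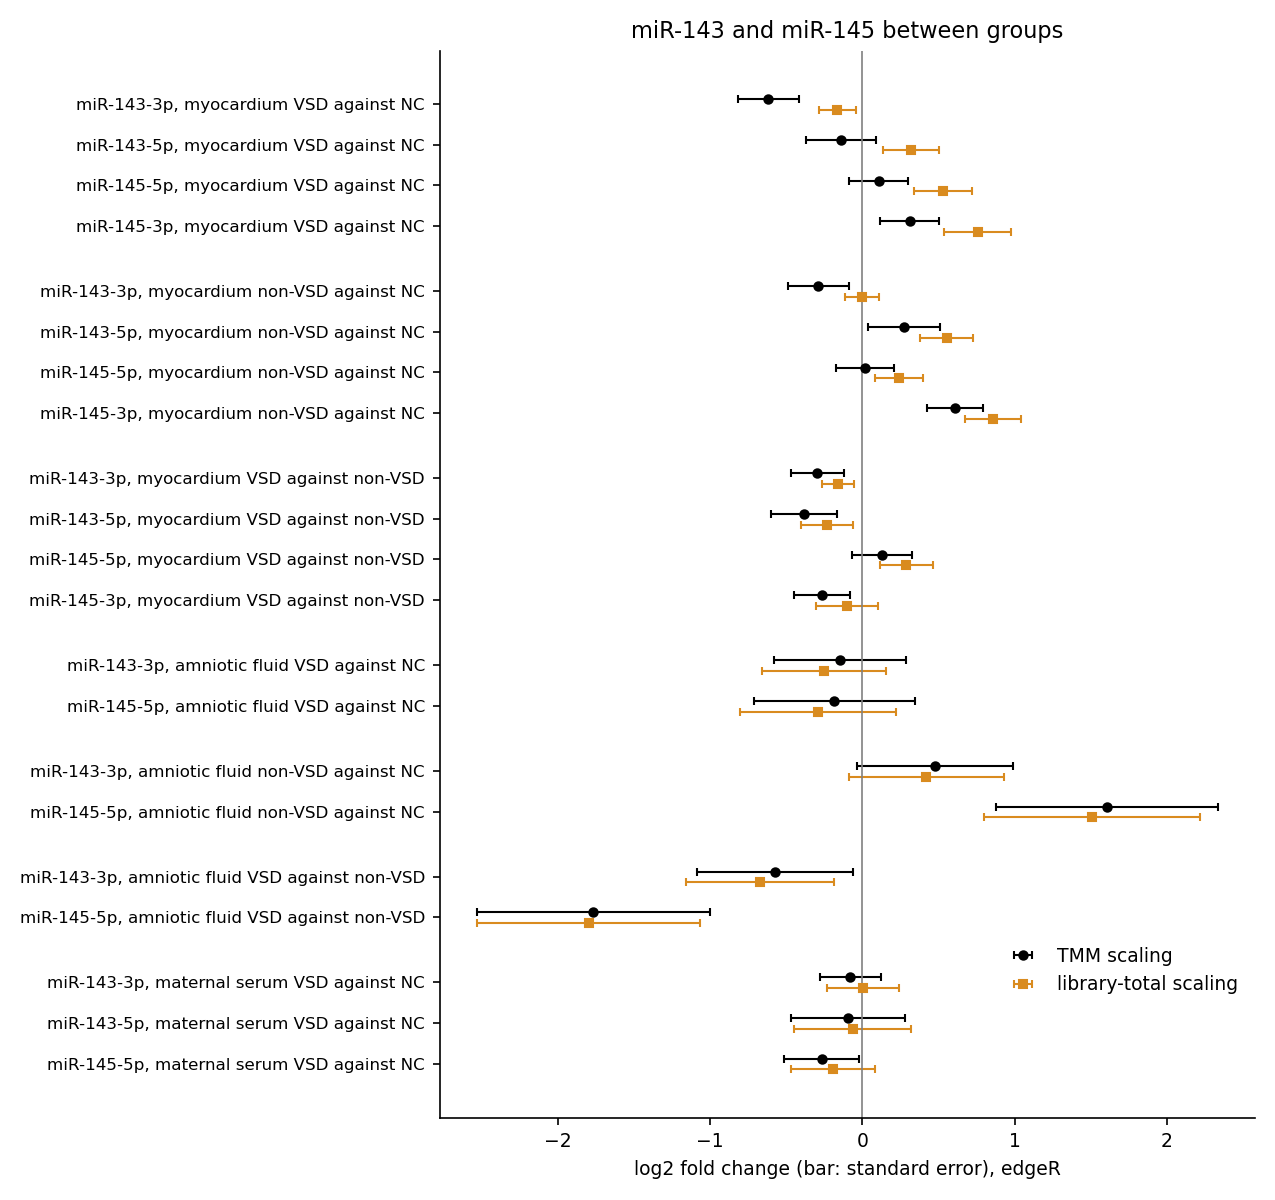
Log2 fold changes of the members that passed the filter on low counts in each comparison (points, with standard errors as bars), from edgeR with TMM scaling (black circles) and library-total scaling (orange squares). In myocardium the library-total values lie to the right of the TMM values in all 3 comparisons, and miR-143-3p has the lowest value of the 4 in VSD and in non-VSD against NC under both.

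Levels of microRNAs of other cell types stood beside these values. Red blood cell microRNAs (miR-451-5p, miR-144-3p, miR-144-5p and miR-486, all 4 listed) summed to 0.327% to 7.31% of an NC library (median 2.91%), 0.305% to 3.49% in non-VSD (0.770%) and 0.477% to 2.42% in VSD (0.891%). The endothelial arms miR-126a-3p and miR-126a-5p summed to 1.06% to 1.65% in NC, 2.01% to 2.91% in non-VSD and 1.62% to 3.06% in VSD. Heart muscle microRNAs had medians of 3.16% in NC, 3.87% in non-VSD and 2.40% in VSD, epithelial ones of 0.108%, 0.181% and 0.338%, and white blood cell ones (miR-142, miR-223-3p and miR-150-5p, 4 names) of 0.125%, 0.0584% and 0.0694%. No member of these 5 lists passed in any of the 3 myocardium comparisons by edgeR, and all 4 red blood cell microRNAs in VSD and 3 in non-VSD were lower at an unadjusted p under 0.05. Of all microRNAs, 59 of 469 in VSD and 41 of 456 in non-VSD were lower at that level. Without the 3 libraries low in heart muscle microRNAs, 2 of the 4 red blood cell microRNAs passed as lower in each DMO group, as did 1 of 4 white blood cell microRNAs in VSD. In either direction, 7 of 472 in VSD and 19 of 455 in non-VSD passed there over all microRNAs. Their part in the values of miR-143 and miR-145 was not tested, and in bulk tissue fewer cells of a type and less of a microRNA per cell cannot be told apart. The TMM factors, by which the library totals are multiplied, ran from 0.630 to 1.23 in NC (median 0.802), from 0.918 to 1.195 in non-VSD (1.03) and from 0.963 to 1.39 in VSD (1.11).

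Ratios within a library do not depend on that scaling. The arm ratio miR-143-3p to miR-143-5p was 524, 675 and 1015 in NC (lowest, median and highest), 342, 499 and 593 in non-VSD, and 393, 478 and 770 in VSD. Its median was lower in both DMO groups, with 4 non-VSD and 5 VSD libraries below every NC library. The log2 difference from NC was -0.53 in non-VSD (exact permutation p = 0.00350, adjusted p = 0.0734 over 21 ratio tests) and -0.46 in VSD (exact permutation p = 0.0169, adjusted p = 0.118), so that neither passed after adjustment. The non-VSD value passed without NC replicate 3 (-0.60, adjusted p = 0.0245 by the exact permutation test) and the VSD value without VSD replicate 3 (-0.57, adjusted p = 0.0367 by the same test). Without the 3 libraries low in heart muscle microRNAs the differences were -0.54 and -0.42, and VSD and non-VSD differed by 0.12.

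The arm ratio of the other hairpin, miR-145-5p to miR-145-3p, was 33.3, 41.9 and 63.4 in NC, 23.0, 26.7 and 46.2 in non-VSD, and 22.5, 35.1 and 66.6 in VSD. In non-VSD 5 of 7 libraries lay below every NC library. The log2 difference was -0.60 in non-VSD (exact permutation p = 0.00816, adjusted p = 0.0857) and -0.20 in VSD (exact permutation p = 0.388, adjusted p = 0.740), and the former passed without non-VSD replicate 1 (-0.71, adjusted p = 0.0367 by the exact permutation test). The ratio between hairpins, miR-143-3p to miR-145-5p, was 19.2, 32.3 and 59.8 in NC, 18.4, 28.5 and 37.4 in non-VSD, and 14.1, 19.2 and 31.7 in VSD. Its log2 difference was -0.66 in VSD against NC (exact permutation p = 0.0233, adjusted p = 0.122), -0.23 in non-VSD against NC (exact permutation p = 0.345, adjusted p = 0.724) and -0.43 in VSD against non-VSD (exact permutation p = 0.0647, adjusted p = 0.272). Without the 3 libraries low in heart muscle microRNAs the differences of miR-145-5p to miR-145-3p were -0.67 in non-VSD and -0.18 in VSD against NC, and those of miR-143-3p to miR-145-5p were -0.60 in VSD and -0.23 in non-VSD against NC and -0.37 in VSD against non-VSD. The groups overlapped in all 3 ratios, and no ratio test between groups passed after adjustment, with or without these libraries.

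**Figure D4:**
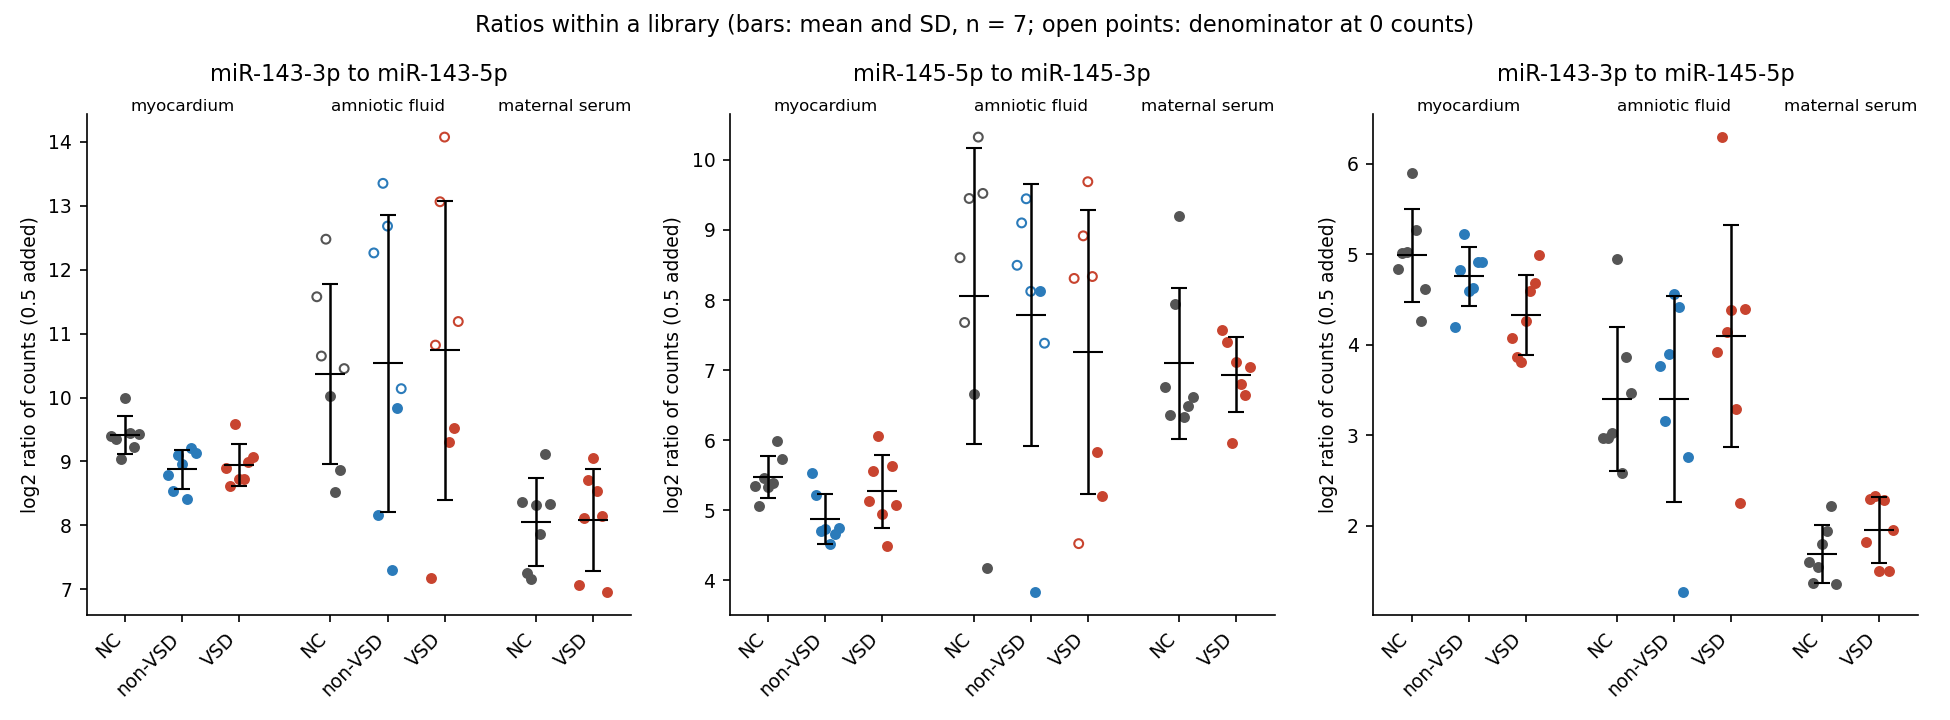
Log2 ratios of counts within each library (0.5 added to each count) for both arm pairs and for miR-143-3p to miR-145-5p, by tissue and group, with mean and SD (n = 7). Open points have a denominator of 0 counts. In myocardium the mean of each ratio is highest in NC, and the amniotic fluid arm ratios rest mostly on denominators of 0.

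Other microRNAs with known roles in smooth muscle were read from fixed lists, as counts of members that passed an edgeR adjusted p of 0.05. Over all microRNAs tested, 90 of 469 in VSD and 80 of 456 in non-VSD myocardium were at an unadjusted p under 0.05 by edgeR, with median log2 fold changes of -0.05 and -0.07. Among microRNAs that bear on smooth muscle differentiation, none of 8 passed in VSD or in non-VSD myocardium against NC by edgeR (0 and 1 at an unadjusted p under 0.05), and the median log2 fold change was 0.52 in VSD and -0.09 in non-VSD. The most abundant were miR-1-3p, a microRNA of heart and skeletal muscle (-1.18 ± 0.58 in VSD), miR-10a-5p, encoded in a Hox cluster (0.87 ± 0.55), miR-133a-3p, which acts against proliferation of muscle cells (-0.44 ± 0.53), and miR-100-5p (-0.25 ± 0.26). Among those that bear on proliferation, 1 of 7 passed in VSD and none in non-VSD by edgeR (2 in each at an unadjusted p under 0.05, in VSD 1 higher and 1 lower), with medians of 0.01 and -0.08. The 1 was miR-146a-5p, an inhibitor of inflammatory signalling, with a log2 fold change of 1.09 ± 0.18 in VSD (edgeR adjusted p = 0.00787). Its mean was 207 CPM of library total in NC, 412 in non-VSD and 569 in VSD. No member of this list passed in VSD against non-VSD. In VSD against NC, miR-146a-5p no longer passed with the replicate block (1.12, edgeR adjusted p = 0.140) or without NC replicate 1, NC replicate 3, VSD replicate 1 or VSD replicate 5 (0.99 to 1.03, edgeR adjusted p = 0.0533 to 0.0675), and passed in the other alternatives. miR-21-5p, which promotes growth of smooth muscle cells and fibroblasts, had -0.26 ± 0.21, miR-26a-5p -0.54 ± 0.16 and miR-24-3p 0.14 ± 0.16 in VSD, none of which passed. Of 10 mesenchymal microRNAs, 9 were tested, none passed in either comparison (2 and 3 at an unadjusted p under 0.05), and the medians were 0.38 and 0.32. miR-152-3p had -0.15 ± 0.20, miR-199a-5p 0.38 ± 0.24, miR-99a-5p 0.34 ± 0.17 and miR-199a-3p 0.39 ± 0.19 in VSD. Without the 3 libraries low in heart muscle microRNAs, the counts that passed by edgeR in VSD and non-VSD were 0 and 1 of 8 for differentiation (2 and 3 at an unadjusted p under 0.05), 1 and 1 of 7 for proliferation, and 0 and 1 of 9 for mesenchymal microRNAs (3 and 4 at an unadjusted p under 0.05). Over all microRNAs in that setting, 7 of 472 and 19 of 455 passed, and 114 and 90 were at an unadjusted p under 0.05.

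Amniotic fluid is a mixture of fetal urine, lung fluid and shed cells, and its levels varied more between libraries of 1 group. miR-143-3p was at 0.883%, 1.55% and 5.51% of the library in NC, 0.597%, 1.86% and 6.43% in non-VSD, and 0.751%, 1.38% and 3.53% in VSD. miR-145-5p was at 0.0795%, 0.178% and 0.258% in NC, 0.0789%, 0.103% and 2.67% in non-VSD, and 0.0135%, 0.125% and 0.440% in VSD. The groups overlapped for both. Only these 2 members passed the filter on low counts, and the other arms summed to 28, 58 and 21 counts (miR-143-5p) and 5, 30 and 10 counts (miR-145-3p) in NC, non-VSD and VSD.

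Neither tested member passed an edgeR adjusted p of 0.05 in amniotic fluid, where none of 245 microRNAs passed in VSD against NC (0.0%, with 33 at an unadjusted p under 0.05), 4.96% passed in non-VSD against NC and none of 273 in VSD against non-VSD (0.0%, with 29 at an unadjusted p under 0.05). DESeq2 and limma passed neither member in any of the 3. The log2 fold change of miR-143-3p was -0.15 ± 0.44 in VSD and 0.47 ± 0.51 in non-VSD against NC, and -0.57 ± 0.51 between them. For miR-145-5p it was -0.19 ± 0.53 in VSD, 1.61 ± 0.73 in non-VSD (edgeR adjusted p = 0.220) and -1.77 ± 0.76 between them (edgeR adjusted p = 0.331), so that it met the DE-microRNA threshold in the latter 2, as 12.4% and 3.3% of microRNAs did, but not in VSD against NC, where 6.94% did. Both values rest on non-VSD replicate 6, the smallest library of its tissue, with 2091 counts of miR-145-5p. Without it they were -0.35 and 0.17, and DESeq2 gave -0.24 and 0.16. The threshold was met in neither comparison by DESeq2 or limma, with the replicate block, or when non-VSD against NC was fitted with all 3 groups and VSD against non-VSD with the DMO groups alone. The study's own list of DE-microRNAs in non-VSD amniotic fluid holds miR-145-5p as upregulated. miR-143-3p against NC turned in sign without NC replicate 4 (0.32 in VSD), in which miR-143-3p took 5.51% of the counts.

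The lists gave no member that passed in VSD amniotic fluid by edgeR among 5 differentiation, 6 proliferation and 8 mesenchymal microRNAs tested (2, 1 and 1 at an unadjusted p under 0.05), with medians of -0.52, -0.39 and -0.46 against -0.06 over all. None of 4 red and 3 white blood cell microRNAs tested passed there by edgeR (2 and 1 at an unadjusted p under 0.05). In non-VSD against NC, where 12 of 242 microRNAs passed by edgeR, 2 of the 4 red blood cell microRNAs did (miR-451-5p and miR-486), as did the endothelial miR-126a-3p. None of them passed by limma, with the replicate block or with all 3 groups in one fit. The red blood cell list summed to 1.53% to 3.62% of the library in NC, 2.63% to 8.59% in non-VSD and 1.82% to 12.95% in VSD, and its part in the values of miR-143 and miR-145 was not tested.

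Maternal serum had no non-VSD group, so DMO given to the dam and a defect in the fetus cannot be told apart there. The NC and VSD groups were close in miR-143-3p. Its share was 0.878%, 1.11% and 1.73% in NC and 0.650%, 1.19% and 1.98% in VSD, with means of 1.14 ± 0.28% and 1.14 ± 0.44% (SD, n = 7). miR-145-5p was at 0.229%, 0.371% and 0.443% in NC and 0.185%, 0.237% and 0.701% in VSD, and 6 of 7 VSD dams lay below the NC median, with 1, replicate 4, above the highest NC dam. On the TMM scale 5 of the 7 VSD libraries lay below the lowest NC library. Without VSD replicate 4 the log2 fold change of miR-145-5p was -0.52, against -0.27 with it, and did not pass by edgeR. The rarer arm miR-143-5p had 9 to 43 counts in NC and 5 to 27 in VSD, and miR-145-3p, with 1 to 31 and 2 to 11, did not pass the filter. The log2 fold changes were -0.08 ± 0.20 for miR-143-3p, -0.09 ± 0.38 for miR-143-5p and -0.27 ± 0.25 for miR-145-5p. None of the 3 passed by edgeR, DESeq2 or limma or reached an unadjusted p of 0.05, and none of 219 microRNAs passed by edgeR (0.0%, with 30 at an unadjusted p under 0.05, and 4.57% at the DE-microRNA threshold). The log2 ratio of miR-143-3p to miR-145-5p differed by 0.26 between VSD and NC (exact permutation p = 0.165, adjusted p = 0.495). Of the other lists, none of 7 differentiation, 7 proliferation and 8 mesenchymal microRNAs tested passed by edgeR (0, 1 and 1 at an unadjusted p under 0.05). All 8 mesenchymal fold changes were below 0 (median -0.23), as were 115 of 219 over all (median -0.03). Those of 3 of 3 heart muscle, 2 of 2 endothelial, 2 of 2 red blood cell, 7 of 8 epithelial and 1 of 4 white blood cell microRNAs tested were also below 0. White blood cell microRNAs summed to 3.79% to 6.82% of a serum library in NC (median 5.18%) and 5.83% to 8.05% in VSD (7.19%), and red blood cell ones to 6.56% to 18.6% (9.03%) and 4.41% to 13.4% (7.77%). None of 4 white and 2 red blood cell microRNAs tested passed by edgeR (0 and 1 at an unadjusted p under 0.05), and their part in these values was not tested.

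Whether a member changed by a different amount in 1 tissue than in another was tested by permuting group labels within each tissue. Each change is of a DMO group against NC, and for serum exposure and defect cannot be told apart. None of 16 differences passed after adjustment (smallest unadjusted p = 0.131). They include the rarer arms, which did not pass the filter on low counts in amniotic fluid, and miR-145-3p, which did not pass it in serum. For miR-145-5p, the mean log2(CPM + 1) change in VSD was 0.10 in myocardium, -0.37 in serum and -0.81 in amniotic fluid, and myocardium against serum differed by 0.47 (100000 permutations, p = 0.131, adjusted p = 0.994). For miR-143-3p the changes were -0.57, -0.11 and -0.11 in the same order, and myocardium against serum differed by -0.46 (permutation p = 0.138, adjusted p = 0.994). The miR-145-5p change of -0.81 in amniotic fluid includes VSD replicate 2, with 11 counts, and edgeR gave -0.19 ± 0.53 for that comparison.

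As a description of likeness, with group means removed, the members of different hairpins were little alike in myocardium. Over 21 libraries that share scaling and tissue make-up, Spearman's rho of miR-145-5p with miR-143-3p was 0.08, place 216 of 482 microRNAs, while the other arm of its hairpin, miR-143-5p, was at place 26 for miR-143-3p with a rho of 0.56. The arms miR-145-5p and miR-145-3p had a rho of 0.06. Those most like miR-143-3p there were miR-125b-2-3p (0.80), miR-598-3p (0.79), miR-1843a-5p (0.77), miR-1843b-5p (0.77) and miR-1839-5p (0.71). Those most like miR-145-5p were miR-702-3p (0.79), miR-155-5p (0.75), miR-342-5p (0.74), miR-425-5p (0.71) and miR-181b-5p (0.70). In amniotic fluid, each of the abundant arms was the other's nearest, at place 1 of 272 with a rho of 0.76 over 21 libraries. There miR-143-3p was followed by miR-380-3p (0.74), miR-369-5p (0.73), miR-329-5p (0.71) and miR-199a-3p (0.67), and miR-145-5p by miR-329-5p (0.70), miR-133a-3p (0.67), miR-380-3p (0.64) and miR-21-5p (0.63). In serum, over 14 libraries, miR-145-5p was at place 25 of 218 for miR-143-3p and miR-143-3p at place 7 for miR-145-5p, with a rho of 0.43, and miR-143-5p was at place 9 for miR-145-5p (0.42). Nearest to miR-143-3p were miR-133a-3p (0.70), miR-126a-5p (0.69), miR-194-5p (0.68), miR-133b-3p (0.68) and miR-203a-3p (0.67), and nearest to miR-145-5p were miR-324-5p (0.74), miR-224-5p (0.67), miR-30d-5p (0.58), miR-345-5p (0.57) and miR-324-3p (0.46).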

How the data were processed

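The authors converted the images with bcl2fastq 2.19, a version from the submitters' processing notes, checked and filtered read quality with FASTX-Toolkit, and deposited raw counts of reads per mature microRNA in 5 tables. Myocardium and serum libraries were made with a TruSeq small RNA kit and run on a HiSeq 2500, and amniotic fluid libraries with a QIAseq miRNA kit on a NovaSeq 6000. The aligner, microRNA annotation and genome build are not given in the sources used here, nor is whether molecular identifiers were counted. The NC counts of myocardium and amniotic fluid stand in 2 tables each and were identical there. A further 70 columns of normalized values, and the columns of the authors' own comparisons (fold changes and p-values), were not used.

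Groups were taken from the labels. Counts were filtered by filterByExpr (minimum count 10, minimum total 15), scaled by TMM and tested with edgeR 4.0.16 (R 4.3.3), each group pair on its own 14 samples and VSD against non-VSD in a fit of 3 groups, adjusted over all microRNAs tested. Differences of ratios used exact two-sided permutation tests and tissue differences 100000 permutations. The ratios of myocardium against serum were tested only once the data were known, and adjusted on their own. Rank correlations were computed on log2(CPM + 2). Alternatives were DESeq2 1.42.0, limma 3.58.1, other scalings, filters, pseudocounts and sample sets, and each sample left out. Leaving out myocardium libraries with under 1% heart muscle microRNAs (the listed names, without miR-1b) was chosen after seeing the data. Procedures were tested on simulated data. No 2 libraries of a group agreed within sampling noise. Members and lists were chosen with earlier results of these data known. Named microRNAs were the members, the 5 most like miR-143-3p and miR-145-5p in each tissue, and at most 4 of a list, by mean CPM. Sequences and positions came from RefSeq (GRCr8).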

Additional observations from a re-analysis of the deposited data

Results flagged for a closer look

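In 10 of 56 groups of 7 values, the highest or the lowest sample lay far from the rest by Dixon's gap-to-range limit at 95%. About 1 of 20 groups of normally distributed values pass that limit by chance. Levels were taken as CPM, which need not be so distributed, and the rarer arms in amniotic fluid had 4 or 5 of 7 libraries at 0. The 10 groups are therefore not to be read against that rate. Of the 10, 8 were in amniotic fluid. miR-145-5p stood at 26743 CPM of library total in non-VSD replicate 6, on 2091 counts, and at 4400 CPM in VSD replicate 6. miR-143-3p stood at 55058 CPM in NC replicate 4. The rarer arms were high on few counts, miR-143-5p at 282 CPM in non-VSD replicate 5 (45 counts) and 86.1 CPM in VSD replicate 1 (16 counts), and miR-145-3p at 37.9 CPM in NC replicate 7 (3 counts) and 73.1 CPM in VSD replicate 6 (9 counts). The log2 ratio of miR-145-5p to miR-145-3p was low in non-VSD replicate 5, at 3.83. In maternal serum, miR-143-3p stood at 17294 CPM in NC replicate 6 and miR-145-5p at 7012 CPM in VSD replicate 4. No member was so placed in myocardium.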

How the results depend on the processing

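Of 206 recomputed fold changes of the members, 193 kept their direction and their side of the threshold, as did 35 of 36 ratio differences and 27 of 32 differences between tissues. With library totals, the values that passed or turned in sign were those of miR-145-3p in VSD (0.76) and non-VSD myocardium (0.86), miR-143-5p in VSD myocardium (0.32), miR-143-3p in serum (0.0036), and the tissue differences of miR-143-3p in VSD, myocardium against amniotic fluid (0.0029) and amniotic fluid against serum (-0.10), and of miR-143-5p (0.24), miR-145-5p (0.039) and miR-145-3p (0.20) in non-VSD. DESeq2 passed miR-145-3p in non-VSD myocardium (0.59) and turned miR-145-5p there (-0.011) and in amniotic fluid non-VSD against NC (-0.24) and VSD against non-VSD (0.16). miR-145-5p in non-VSD myocardium, near 0, also turned with no filter (-0.015), a minimum of 10 counts in all samples (-0.0047), 3 groups in a fit (-0.019) and without the libraries low in heart muscle microRNAs (-0.051). The fit of 3 groups passed miR-143-3p in VSD myocardium (-0.62). With 1 count added, the serum ratio of miR-143-3p to miR-143-5p was -0.0018. The causes were not tested.

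Leaving out each sample in turn kept 368 of 392 fold changes and 304 of 336 ratio differences on their side and sign. Fold changes ran from -0.75 to -0.56 for miR-143-3p in VSD myocardium. miR-145-5p ran from -0.099 to 0.16 in VSD, -0.086 to 0.12 in non-VSD and -0.037 to 0.23 between the DMO groups in myocardium, and from -0.80 to 0.015, -0.35 to 1.82 and -2.34 to 0.17 for the same comparisons in amniotic fluid. miR-143-3p ran from -0.52 to 0.32 in VSD amniotic fluid and -0.20 to 0.058 in serum. In serum, miR-143-5p ran from -0.44 to 0.077 and miR-145-5p from -0.52 to -0.14. The ratio miR-143-3p to miR-143-5p ran from -0.57 to -0.37 (VSD), -0.60 to -0.44 (non-VSD) and -0.039 to 0.12 (between them) in myocardium, from -0.18 to 0.96, -0.30 to 0.71 and -0.35 to 0.80 in amniotic fluid, and from -0.13 to 0.22 in serum. miR-145-5p to miR-145-3p ran from -0.71 to -0.51 (non-VSD myocardium), -0.92 to 0.39 (non-VSD amniotic fluid) and -0.29 to 0.19 (serum), and miR-143-3p to miR-145-5p from -0.19 to 0.36 in non-VSD amniotic fluid.

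The number of microRNAs passing an adjusted p of 0.05 in myocardium was 2 in VSD and 1 in non-VSD by edgeR, 46 and 48 by DESeq2, 38 and 22 with library totals, and 7 and 19 without the libraries low in heart muscle microRNAs, 77 and 19 without NC replicate 2, and 0 and 0 with the replicate block and without NC replicate 1. By limma it was 2 and 0. In non-VSD amniotic fluid it was 12 by edgeR, 29 by DESeq2, 2 with the replicate block and 0 without NC replicate 1. Replicate numbers are shared between groups, but not all same-numbered samples deviated together in any group pair (median correlations of -0.28 to 0.20 over 7 group pairs, and at most 5 of 7 pairs over 0.1, in myocardium non-VSD against VSD and in serum NC against VSD). With the replicate block, miR-143-3p in VSD myocardium was -0.57 (edgeR adjusted p = 0.303), miR-145-3p in non-VSD myocardium 0.61 and miR-145-5p in non-VSD amniotic fluid 0.06, and the block changed no member's call at an adjusted p of 0.05, while miR-145-5p in amniotic fluid no longer met the DE-microRNA threshold in non-VSD against NC or VSD against non-VSD. Depth limits the rarer arms in amniotic fluid, which had 0 counts in most libraries, and in serum.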
